A study of Homo sapiens with 24 samples.

Results

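The RNA levels of 41 DNA replication and S-phase genes were followed in HCT116 cells and in their oxaliplatin-resistant derivative, across 8 groups of cell line and treatment. The genes were listed by symbol, with earlier results of these data known, and all 41 were found among the 37967 genes of the larger table. HCT116 is a human colorectal carcinoma cell line. HCT116 oxpl-R cells were derived from it by repeated pulses of a high dose of oxaliplatin, a platinum drug that cross-links DNA, and the study describes them as hypotetraploid. They are a single derived line. Cells of both lines carried a TetOn cassette for E1A, an adenovirus protein, which doxycycline switches on. In each line, 3 samples were left untreated (control), 3 received 0.5 µg/mL doxycycline (E1A), 3 received 25 µM oxaliplatin for 24 h, and 3 received both, with doxycycline added 3 h before oxaliplatin. Cells without the cassette were not analysed here, so an action of doxycycline and an action of E1A cannot be told apart. The labels call the 3 samples of a group biological replicates and do not say whether they came from separate cultures, so p-values measure the spread between these samples.

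Replication begins with licensing. The origin recognition complex (ORC1, ORC6) recruits CDC6 and CDT1, which load the helicase made of MCM2, MCM3, MCM4, MCM5, MCM6 and MCM7, and geminin (GMNN) holds CDT1 back. At the start of S phase the kinase CDC7, with CDC45, MCM10 and the GINS proteins, turns the loaded helicase on. Primase and DNA polymerases (PRIM1, POLA1, POLA2, POLD1, POLE, POLE2) then copy the strands, held on by the sliding clamp PCNA, which the RFC proteins and DSCC1 load, while FEN1 and LIG1 process and join the lagging strand. CLSPN and TIMELESS protect the fork, DTL directs the destruction of CDT1, CHAF1A and CHAF1B place histones behind the fork, SLBP binds histone mRNA, and RRM1, RRM2 and TK1 supply nucleotides. Transcription of most of these genes rises toward S phase under E2F factors, which the RB family holds in check. The p53 target CDKN1A (p21) strengthens that check after DNA damage, and E1A is known for binding RB family proteins and releasing E2F.

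Total counts ranged from 24838095 to 37927720 per sample in the count table, which holds 38 of the genes. SLBP, TIMELESS and TK1 come from the larger, length-scaled table (28004261 to 42613322 per sample). Levels are in CPM, a gene's count as a share of its library's total, brought to the same total in each library. The totals were first adjusted by TMM scaling over the 24 libraries, which sets each library's size from the bulk of its genes. In bulk samples, fewer cells in S phase and less RNA per cell cannot be told apart. All 7 epithelial markers were detected, with a summed level of 5440 to 16800 CPM, against 14 to 53.3 CPM for 4 fibroblast markers, 0.343 to 6.57 CPM for 3 leukocyte markers and 0 to 0.646 CPM for 2 endothelial markers. Known targets of p53 served as a check of the treatment. CDKN1A stood at 144 ± 6.15 CPM (SD, n = 3) in HCT116 control cells and 1880 ± 225 CPM with oxaliplatin, and at 566 ± 37.1 and 4150 ± 586 CPM in HCT116 oxpl-R cells. MDM2, another p53 target, stood at 101 ± 4.21 and 139 ± 40.4 CPM in HCT116 cells and at 166 ± 15.5 and 705 ± 97.2 CPM in HCT116 oxpl-R cells. The E1A transcript itself is not analysed here, so its induction was not checked, and E1A below names the groups given doxycycline. Libraries also differed in a trend with GC content. The median deviation of GC-rich genes (from 57.0% GC) minus that of GC-poor genes (to 42.4% GC), on the log2 scale and against the mean of the HCT116 control libraries, was −0.15 to 0.25 in HCT116 control libraries, 0.32 to 0.43 with E1A, 0.77 to 1.37 with oxaliplatin and 0.47 to 1.40 with both, and in HCT116 oxpl-R libraries it was −0.12 to 0.09, −0.11 to 0.53, −0.38 to 0.74 and 0.10 to 0.40. A repeat of every comparison with this trend removed was added after the data were seen. The share of all genes called in that repeat was not computed. In HCT116 cells the trend went with treatment, so a technical trend and an effect of the treatment cannot be told apart there.

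The promoters are shown because E2F is the factor family that E1A and p21 both reach. RefSeq promoter windows of 300 bases (250 before to 50 after the annotated start, GRCh38.p14) were found for 37 of the 41 genes. The E2F motif was searched on both strands in the forms TTCCCGC, with its variant TTCGCGC, and TTGGCGC, with its variant TTGCCGC, and matches may overlap one another and the GC box. It occurred in 28 of the 37 windows (75.7%), against 13.1% of all 27305 promoters and 20.3% of the 8718 promoters of genes with a mean count of at least 10. For comparison, the cell cycle homology region of mitotic promoters (CHR, searched as TTTGAA or TTCGAA) occurred in 5.4% of the replication promoters, in 77.3% of 22 mitotic promoters, in 16.6% of all and in 11.1% of those with a mean count of at least 10. CCAAT occurred in 56.8% of the replication promoters, 35.7% of all and 36.3% of those with a mean count of at least 10. The GC box GGGCGG occurred in 73.0%, 44.6% and 69.4%, so its share was close to that of expressed genes. A match describes the letters in the window and is no evidence of binding. In the 4 windows below, read 5′ to 3′ in the direction of the gene, capitals mark the E2F matches.
CDT1, chr16:88803539-88803838, plus strand: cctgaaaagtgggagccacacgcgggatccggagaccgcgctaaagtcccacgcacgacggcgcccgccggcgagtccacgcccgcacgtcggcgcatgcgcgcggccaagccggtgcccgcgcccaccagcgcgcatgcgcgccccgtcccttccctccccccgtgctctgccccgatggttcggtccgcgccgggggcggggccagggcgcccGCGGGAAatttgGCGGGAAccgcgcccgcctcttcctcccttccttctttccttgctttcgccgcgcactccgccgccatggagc
MCM2, chr3:127598161-127598460, plus strand: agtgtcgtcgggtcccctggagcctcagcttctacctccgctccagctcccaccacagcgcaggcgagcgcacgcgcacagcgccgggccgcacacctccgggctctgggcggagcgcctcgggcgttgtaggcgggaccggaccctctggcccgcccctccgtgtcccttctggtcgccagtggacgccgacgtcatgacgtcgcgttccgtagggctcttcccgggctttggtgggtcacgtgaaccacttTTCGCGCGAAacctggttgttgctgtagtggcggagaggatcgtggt
MCM6, chr2:135876394-135876693, minus strand: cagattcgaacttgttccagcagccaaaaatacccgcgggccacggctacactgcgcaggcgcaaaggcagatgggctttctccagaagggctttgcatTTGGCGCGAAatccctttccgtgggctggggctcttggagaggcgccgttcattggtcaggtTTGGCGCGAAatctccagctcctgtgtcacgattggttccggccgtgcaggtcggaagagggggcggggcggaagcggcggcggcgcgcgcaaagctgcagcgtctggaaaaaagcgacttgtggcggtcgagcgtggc
PCNA, chr20:5126573-5126872, minus strand: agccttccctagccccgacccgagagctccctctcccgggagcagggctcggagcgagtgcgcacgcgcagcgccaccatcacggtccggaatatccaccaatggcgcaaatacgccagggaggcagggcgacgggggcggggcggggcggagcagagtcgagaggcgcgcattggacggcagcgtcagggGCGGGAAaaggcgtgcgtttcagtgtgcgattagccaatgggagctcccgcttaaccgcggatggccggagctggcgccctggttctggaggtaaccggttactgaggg
CDT1 and MCM2 are shown as licensing genes whose change with oxaliplatin differed between the lines, MCM6 for its 4 matches, the most in any of these windows, and PCNA for its level, which was higher in the resistant line. The matches lie close to the start in CDT1 and MCM2, and those of MCM2 and MCM6 overlap in pairs on opposite strands.

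Across the untreated HCT116 cells the genes spanned a wide range. Per kilobase of exon, PCNA was the highest at 254 ± 14.2 CPM (SD, n = 3), followed by TK1 at 218 ± 15.4 in the other table, and the helicase subunits MCM3 and MCM7 stood at 139 and 137. POLA1, the catalytic subunit of the primase-bound polymerase, was the lowest at 2.19 CPM per kilobase, and CLSPN stood at 3.75. Summed over the 38 genes of the count table, levels were 5870 to 6210 CPM in HCT116 control libraries, 5830 to 6640 with E1A, 4270 to 4610 with oxaliplatin and 4640 to 5040 with both. In HCT116 oxpl-R cells the sums were 4320 to 5010, 5240 to 5430, 1810 to 2130 and 3500 to 3990 CPM. The oxaliplatin libraries were thus the lowest in both lines, and their sums did not overlap those of any other group of the same line.

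**Figure D1:**
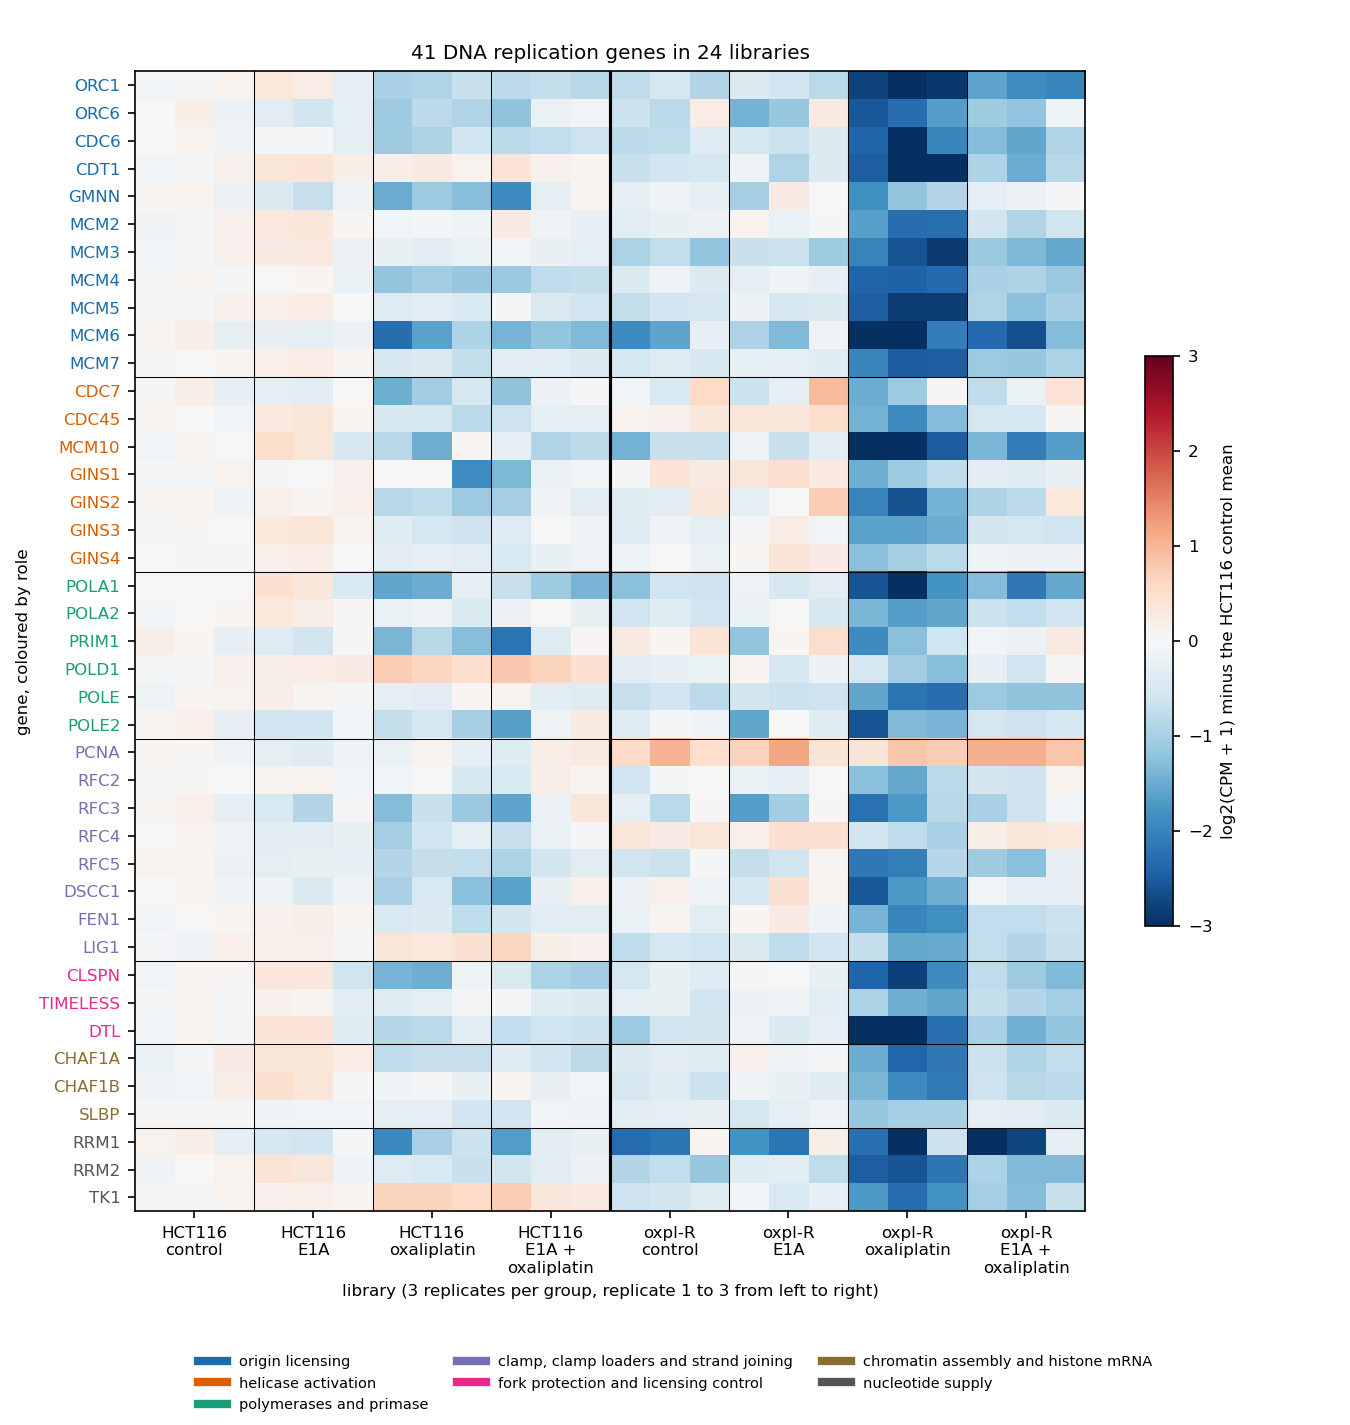
Each row is a gene, coloured by role, and each column a library, with 3 per group; colour gives log2(CPM + 1) minus the mean of the HCT116 control libraries, blue for lower and red for higher. The 3 HCT116 oxpl-R oxaliplatin columns are the darkest blue for most genes, while PCNA is red across the HCT116 oxpl-R columns.

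**Figure D2:**
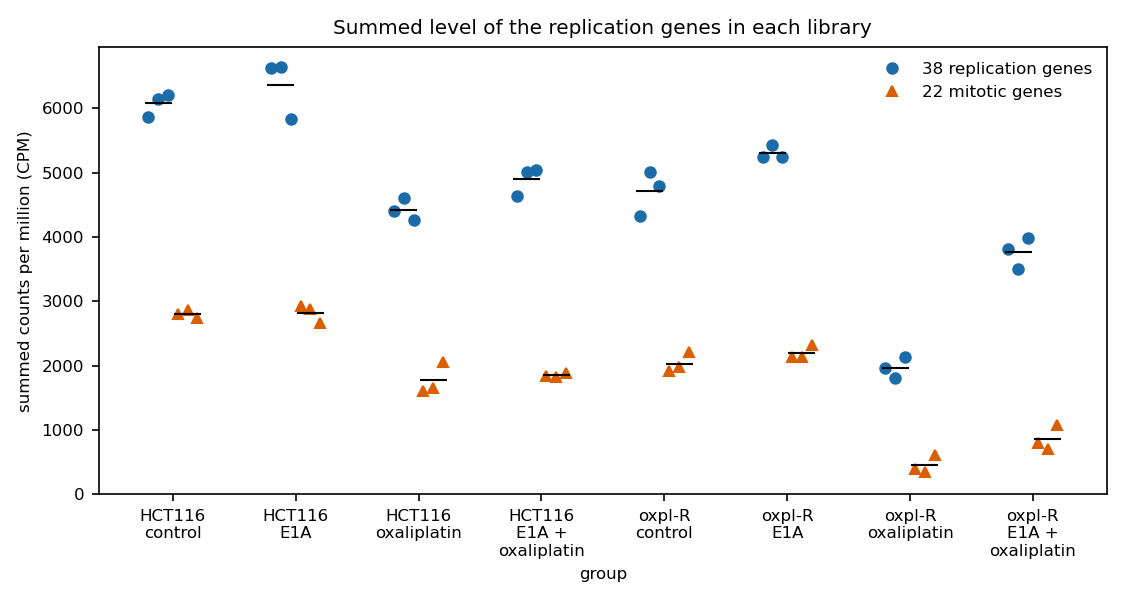
Summed CPM of the 38 replication genes of the count table (circles) and of 22 mitotic genes (triangles) in each library, with the group mean as a line. The replication sums fall to 1810 to 2130 CPM in HCT116 oxpl-R cells with oxaliplatin and stand at 3500 to 3990 CPM when doxycycline was given as well.

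The untreated lines were compared first. Of the 41 replication genes 18 were lower in the resistant line than in the parental line and 2 were higher, while 21 did not pass the test (edgeR's quasi-likelihood test, adjusted p below 0.05, which is what called means throughout). Over all genes tested in the count table, 14.2% were called lower and 14.1% higher. The shares were 11.5% and 12.6% in the length-scaled table. Among expressed genes of the count table, 21.4% were called lower and 20.3% higher. The median log2 fold change was −0.36, against −0.02 over all expressed genes, and 35 of 41 values were below 0. Of the licensing genes 7 of 11 were lower and 0 higher, with a median of −0.59. Among the other roles, 1 of 7 helicase activators, 3 of 6 polymerase genes, 1 of 8 clamp and joining genes, 2 of 3 fork genes, 2 of 3 chromatin genes and 2 of 3 nucleotide genes were lower.

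MCM3, a helicase subunit, read 473, 492 and 550 CPM in HCT116 control samples and 259, 301 and 220 CPM in HCT116 oxpl-R control samples. The samples did not overlap, and the log2 fold change was −0.95 ± 0.13 (SE, edgeR adjusted p = 0.000135). MCM10, which activates the helicase, read 48.6, 54.6 and 52.7 CPM against 18.7, 32.2 and 32.3 CPM (−0.90 ± 0.18, edgeR adjusted p = 0.00224). POLA1 was lower by a similar amount (−0.82 ± 0.18, edgeR adjusted p = 0.00336), as were DTL (−0.73 ± 0.15) and CHAF1B (−0.51 ± 0.12). MCM6 had the largest fall called, −1.08 ± 0.32 (edgeR adjusted p = 0.0226), but its HCT116 oxpl-R samples were uneven, at 43.3, 54.7 and 138 CPM against 174, 190 and 136 CPM. RRM1, the large subunit of ribonucleotide reductase, was more uneven still. It read 33.1, 35.9 and 178 CPM in HCT116 oxpl-R cells against 182, 191 and 136 CPM, and its −1.04 ± 0.48 did not pass (edgeR adjusted p = 0.128).

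PCNA went the other way. Its levels were 372, 365 and 334 CPM in HCT116 cells and 533, 736 and 505 CPM in HCT116 oxpl-R cells, without overlap (log2 fold change 0.74 ± 0.15, edgeR adjusted p = 0.00193). RFC4, a clamp loader subunit, was the other gene called higher (0.34 ± 0.11, edgeR adjusted p = 0.0377). RFC4 lies on chromosome 3, whose expressed genes had a median of 0.44, so it sat 0.10 below its chromosome (−0.10), within its SE of 0.11. Chromosome medians come from the length-scaled table, while the values of 38 of the 41 genes, RFC4, PCNA and MCM2 among them, come from the count table. PCNA lies on chromosome 20, with a median of 0.09, and sat 0.65 above it. After the median of each gene's chromosome was subtracted, 35 of 41 values were again below 0, with a median of −0.39. MCM2, also on chromosome 3, did not pass on its own scale (−0.24 ± 0.11) and lay 0.68 below its chromosome (−0.68). Of 44 further replication genes, 14 were lower and 3 higher (median −0.26), led by the DNA helicase RECQL4 (−1.44 ± 0.11) and by MCM9 (−0.98 ± 0.17). Of 24 mitotic genes 11 were lower and 0 higher (median −0.45), among them the spindle motor KIF11 (−1.66 ± 0.13) and the checkpoint kinase BUB1 (−1.26 ± 0.28). Only 1 replication gene, MCM6, passed with a fold change above 1 on the log2 scale as a further condition (3.17% of all genes in the count table were lower by that rule).

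In HCT116 cells given oxaliplatin most of the genes called were lower than in control cells, and a few were higher. Of the 41 genes 21 were lower, 3 higher and 17 not called. The background was 10.2% lower and 13.1% higher in the count table (15.1% and 19.3% of its expressed genes). In the length-scaled table it was 9.27% and 11.8%. The median log2 fold change was −0.53, against −0.02 over expressed genes, and only 5 genes passed with a change above 1 (all lower, against 3.37% of all genes in the count table). Mean levels stood at 34.5% to 155% of the control, with a median of 65.7%. Licensing had 7 of 11 genes lower and helicase activation 4 of 7. Both lower and higher calls came from the polymerases (2 and 1 of 6), the clamp group (4 and 1 of 8) and nucleotide supply (2 and 1 of 3).

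GMNN, the inhibitor of CDT1, fell from 47.9, 49.4 and 40.3 CPM to 15.7, 20.8 and 18.3 CPM (−1.25 ± 0.17, edgeR adjusted p = 0.00142), with no overlap. MCM6 fell from 174, 190 and 136 to 33, 53.3 and 86.5 CPM (−1.45 ± 0.30, edgeR adjusted p = 0.0078). PRIM1, which shares 139 bases with the more abundant NACA on the same strand and is therefore uncertain, changed by −1.11 ± 0.20 (edgeR adjusted p = 0.00422). RRM1 (−1.03 ± 0.28), RFC3 (−0.97 ± 0.20), CDC7 (−0.93 ± 0.27) and CHAF1A (−0.65 ± 0.14) were called lower too. CDC6, the loading factor, read 136, 146 and 127 CPM without and 64.6, 69.8 and 90.1 CPM with oxaliplatin, and RRM2, the small reductase subunit, 546, 597 and 637 against 450, 433 and 374 CPM. Both were called, with no overlap. CDT1 was not called. Its levels of 177, 184 and 166 CPM overlapped the control levels of 145, 150 and 170 CPM. MCM2, at 305, 323 and 363 CPM without and 313, 315 and 302 CPM with oxaliplatin, and PCNA, at 372, 365 and 334 CPM without and 309, 378 and 293 CPM with it, were not called either, and CLSPN (−0.83 ± 0.33, edgeR adjusted p = 0.106) did not pass.

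The 3 genes that rose encode the catalytic subunit of polymerase delta (POLD1), thymidine kinase (TK1) and DNA ligase 1 (LIG1). POLD1 went from 104, 104 and 118 CPM to 185, 169 and 154 CPM (0.72 ± 0.13, edgeR adjusted p = 0.00434), TK1 from 387, 385 and 435 to 639, 635 and 604 CPM (0.68 ± 0.12, edgeR adjusted p = 0.00408) and LIG1 from 110, 107 and 128 to 147, 143 and 159 CPM (0.46 ± 0.13, edgeR adjusted p = 0.0288). Their samples did not overlap. All 3 have a high GC content (POLD1 63.9%, TK1 62.8%, LIG1 56.6%), with LIG1 just under the 57.0% bound used above. GC-rich genes as a whole read higher in these libraries, as given above. Of the 14 replication genes of highest GC content 3 were called higher and 4 lower, and CDT1, at 64.3%, was not called. Whether their rise came from a technical trend was not tested. As the trend went with treatment, it cannot be told apart from a response to oxaliplatin. With the GC trend removed, TK1 had 0.12, POLD1 0.11 and LIG1 0.09, and none of the 3 was called. The count then became 15 lower and 0 higher, with CHAF1A (−1.07), MCM6 (−1.05) and MCM7 (−0.88) the lowest of those called, and the median −0.34. The 14 genes of lowest GC content had a median of −0.88 before and −0.31 after, and the 14 of highest GC content −0.15 and −0.39. Of the further replication genes 16 fell and 5 rose (median −0.48, ORC3 −1.37, DBF4 −1.22), and of the mitotic genes 13 fell and 0 rose (median −0.81, HMMR −1.86, DLGAP5 −1.43). The number of replication genes called in HCT116 cells depended on single libraries: it was 13 of 41 without control replicate 1 or without control replicate 2, 15 without control replicate 3 and 33 without oxaliplatin replicate 3.

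**Figure D3:**
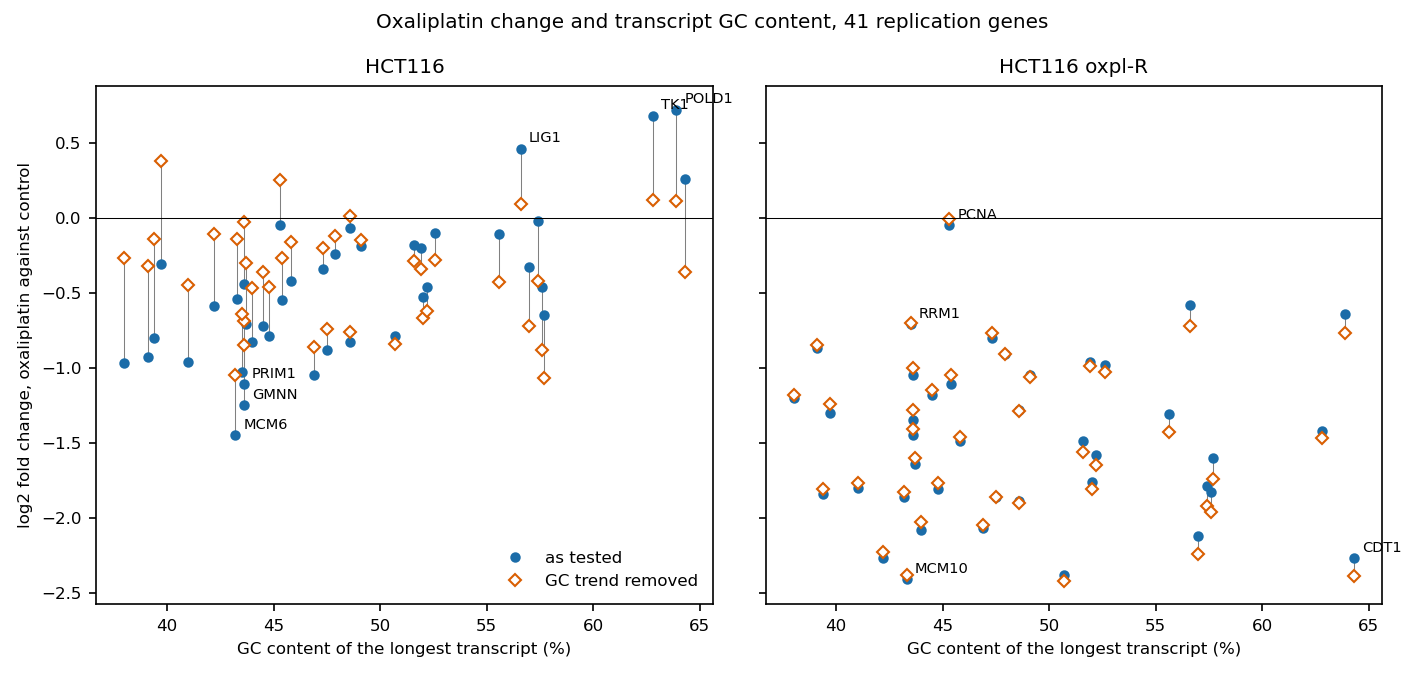
Log2 fold change with oxaliplatin against the GC content of the longest transcript for the 41 genes, in HCT116 (left) and HCT116 oxpl-R cells (right), as tested (filled circles) and with the GC trend removed (open diamonds), joined per gene. In HCT116 the values of POLD1, TK1 and LIG1 move from 0.72, 0.68 and 0.46 to near 0.1, while in HCT116 oxpl-R cells the symbols nearly coincide.

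In HCT116 oxpl-R cells given oxaliplatin the genes called were all lower. Of the 41 genes 33 were lower, 0 were higher and 8 were not called (background 2.1% lower and 2.02% higher in the count table, 2.24% and 2.04% in the length-scaled table). At an unadjusted p below 0.05 the numbers were 39 lower and 0 higher (8.13% of all genes lower), and DESeq2 called 35 lower and 0 higher (4.56% of all genes lower). All 41 fold changes were below 0, with a median of −1.49 against 0.02 over expressed genes, and 29 genes passed with a fall above 1 (1.64% of all genes in the count table and 1.67% in the length-scaled table). Mean levels stood at 18.6% to 95.8% of the control, with a median of 35.3%. In 37 genes every oxaliplatin sample lay below every control sample, as it did in 10.4% of all genes of the count table and 13.7% of its expressed genes. Called lower were 10 of 11 licensing genes, 6 of 7 helicase activators, 5 of 6 polymerase genes, 4 of 8 clamp and joining genes, all fork and chromatin genes (3 of 3 each) and 2 of 3 nucleotide genes.

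CDT1 fell from 96.4, 103 and 107 CPM to 27.2, 18.2 and 17.7 CPM (−2.27 ± 0.22, edgeR adjusted p = 8.46e-05). ORC1, the largest ORC subunit, fell from 38.8, 46.2 and 35.3 to 8.85, 5.97 and 8.06 CPM (−2.38 ± 0.24, edgeR adjusted p = 0.000109), and MCM10 from 18.7, 32.2 and 32.3 to 4.08, 3 and 8.38 CPM (−2.41 ± 0.37, edgeR adjusted p = 0.00225). These were the 3 deepest falls. CDC6 went from 78.1, 80.4 and 104 CPM to 24.8, 15.2 and 34.3 CPM, MCM2 from 259, 281 and 293 to 106, 66.5 and 67.6 CPM, and RRM2 from 321, 356 and 269 to 105, 97.2 and 131 CPM. Each was called and had no overlap. GMNN also fell, from 37, 41.8 and 37.7 to 12, 19.6 and 24.3 CPM (−1.05 ± 0.26). The deepest change of the other roles was in DTL (−2.27 ± 0.34), DSCC1 (−1.84 ± 0.27), POLA1 (−1.80 ± 0.40) and CHAF1A (−1.60 ± 0.24).

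PCNA was among those not called. It read 533, 736 and 505 CPM without and 466, 635 and 597 CPM with oxaliplatin, with a log2 fold change of −0.05 ± 0.21, closest to 0 of the 41. MCM6 (−1.86 ± 0.49), RFC3 (−1.20 ± 0.35), RFC5 (−1.18 ± 0.33), CDC7 (−0.87 ± 0.39), RRM1 (−0.71 ± 0.73), POLD1 (−0.64 ± 0.22) and LIG1 (−0.58 ± 0.24) were the others not called. After removal of the GC trend 38 genes were called lower. The medians of the lowest and highest GC groups were −1.54 and −1.54 before and −1.51 and −1.61 after. Of the further replication genes 16 fell and 1 rose (median −0.78). TICRR, which brings CDC45 to origins, had −2.52 and the histone chaperone ASF1B −2.02, and the gene that rose was RRM2B, a p53-induced reductase subunit (1.42). Of the mitotic genes 21 fell and 0 rose (median −2.15, KIF20A −2.82, PLK1 −2.79), and the sum over the 22 in the count table went from 1910 to 2210 CPM in control libraries to 345 to 605 CPM.

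Under oxaliplatin most replication genes were lower in HCT116 oxpl-R than in HCT116 cells. Of the 41 genes 31 were lower, 1 was higher and 9 were not called. The background was 10.9% lower and 9.77% higher in the count table (15.8% and 13.9% of its expressed genes). In the length-scaled table it was 10.9% and 10.7%. The median log2 fold change was −1.35, against 0 over expressed genes, and 29 genes were lower by more than 1 (7.4% of all genes in the count table and 6.9% in the length-scaled table). In 31 genes every HCT116 oxpl-R sample lay below every HCT116 sample and in 1 gene every sample lay above. Over all genes of the count table the shares were 16.9% below and 19% above, and over its expressed genes 23.3% and 24.9%. Licensing had 10 of 11 genes lower, and all 3 fork genes and all 3 chromatin genes were lower.

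CDT1 had the largest difference, with 27.2, 18.2 and 17.7 CPM in HCT116 oxpl-R against 177, 184 and 166 CPM in HCT116 cells (−3.15 ± 0.25, edgeR adjusted p = 5.69e-06). MCM10 followed with 4.08, 3 and 8.38 against 28.5, 18.2 and 55 CPM (−2.80 ± 0.47, edgeR adjusted p = 0.0011), and TK1 with 122, 81.5 and 113 against 639, 635 and 604 CPM (−2.59 ± 0.23, edgeR adjusted p = 2.13e-05). None of these overlapped between the lines. DTL (−2.43 ± 0.37), POLE, the leading-strand polymerase (−1.91 ± 0.26), CHAF1B (−1.75 ± 0.24) and LIG1 (−1.69 ± 0.26) were the largest differences of their roles. PCNA was the gene called higher, at 466, 635 and 597 against 309, 378 and 293 CPM (0.71 ± 0.24, edgeR adjusted p = 0.0498). Same-numbered samples deviated together in this comparison, and with the replicate number as a block PCNA was no longer called (0.70, edgeR adjusted p = 0.0606). With the GC trend removed it was 0.49 (edgeR adjusted p = 0.0865). Of the further replication genes 18 were lower and 2 higher (median −0.83, TICRR −2.95, RECQL4 −2.86), and of the mitotic genes 16 were lower and 0 higher (median −1.99, PLK1 −3.13, CDC20 −3.08).

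Whether the change with oxaliplatin itself differed between the lines was tested by the interaction term, as the log2 fold change in HCT116 oxpl-R minus that in HCT116 cells. It was lower in 15 genes and higher in 0 (background 1.75% lower and 0.694% higher in the count table, 2.22% and 0.948% in the length-scaled table). At an unadjusted p below 0.05, 29 were lower and 0 higher (8.69% of all genes lower), and DESeq2 called 21 lower and 0 higher (7.97% of all genes lower). The median was −1.0, against 0.04 over expressed genes, and 37 of 41 values were below 0. All 15 differed by more than 1 on the log2 scale (1.59% of all genes in the count table and 1.82% in the length-scaled table). Licensing had 7 of 11 genes called, polymerases 2 of 6, nucleotide supply 2 of 3, and each of the other roles 1.

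CDT1 led, with a difference of −2.51 ± 0.25 (edgeR adjusted p = 4.73e-05). Its change was 0.26 ± 0.12 in HCT116 and −2.27 ± 0.22 in HCT116 oxpl-R cells. For TK1 the changes were 0.68 ± 0.12 and −1.42 ± 0.20 (difference −2.05 ± 0.24, edgeR adjusted p = 0.000188), and for MCM5, a helicase subunit, −0.33 ± 0.12 and −2.12 ± 0.20 (difference −1.78 ± 0.23, edgeR adjusted p = 0.000364). In CDT1 and TK1 the level was thus higher than or close to the control in the parental cells and far below it in the resistant cells. DTL (−1.67 ± 0.39, edgeR adjusted p = 0.0309), POLD1 (−1.34 ± 0.27, edgeR adjusted p = 0.0121), CHAF1B (−1.19 ± 0.26, edgeR adjusted p = 0.0231) and FEN1 (−1.10 ± 0.25, edgeR adjusted p = 0.0284) were called in their roles, while MCM10 was not (−1.87 ± 0.52, edgeR adjusted p = 0.0667). MCM2 (−1.76 ± 0.26, edgeR adjusted p = 0.0016) and RRM2 (−1.05 ± 0.25, edgeR adjusted p = 0.0296) were called too, and CDC6 was not (−1.01 ± 0.34, edgeR adjusted p = 0.129). For GMNN the difference was 0.22 ± 0.31, for MCM6 −0.39 ± 0.63, for PCNA 0.02 ± 0.26 and for RRM1 0.34 ± 0.90, none of them called. GMNN and MCM6 had fallen in the parental cells, and the SE of MCM6 and RRM1 leaves room for large differences either way. With the GC trend removed, the number called was 21, with CDT1 at −2.07 and TK1 at −1.61. Left out in turn, single libraries moved the number to 6 (HCT116 control replicate 1, or 2), to 7 and 9 (HCT116 oxpl-R control replicates 2 and 1) and to 10 (HCT116 control replicate 3). Of the further replication genes 8 were lower and 0 higher (median −0.42, ASF1B −2.46, TICRR −2.13), and of the mitotic genes also 8 and 0 (median −1.16, PLK1 −2.59, CDC20 −2.58).

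**Figure D4:**
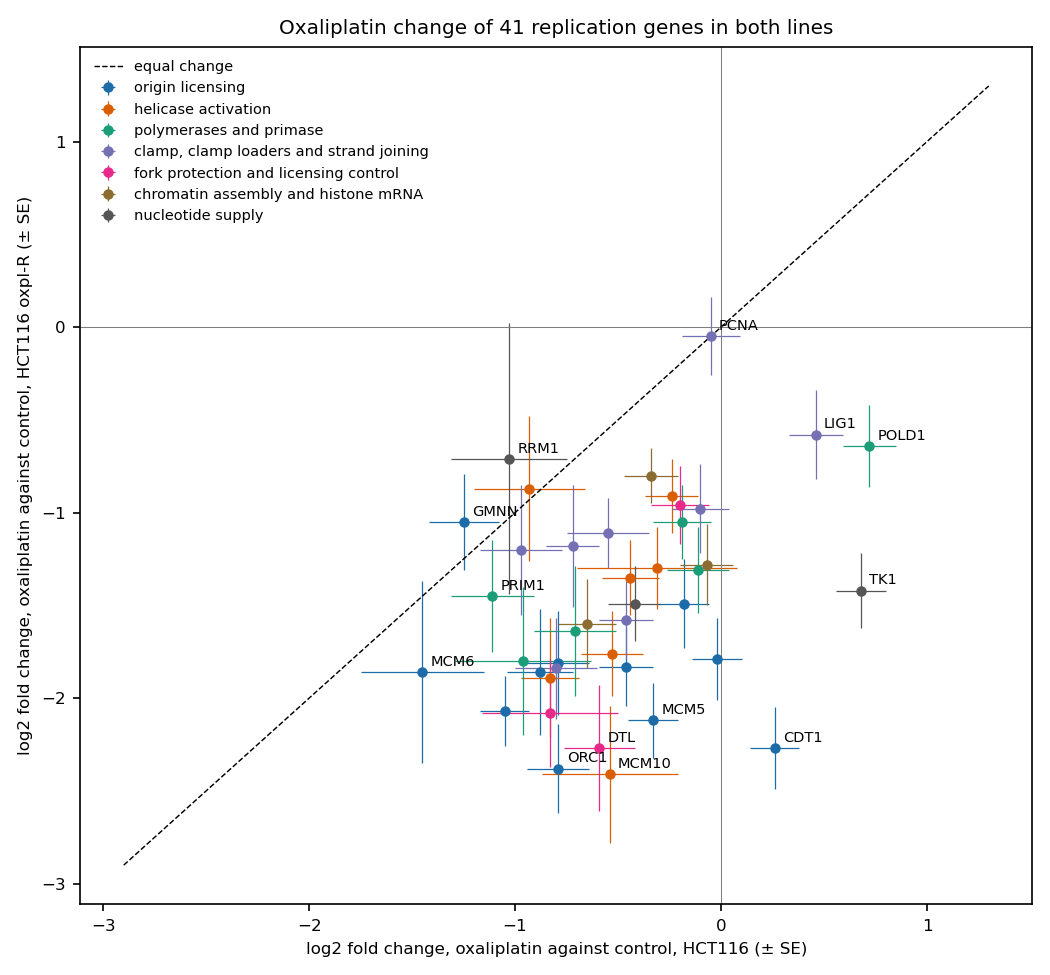
Log2 fold change with oxaliplatin in HCT116 (x axis) and in HCT116 oxpl-R cells (y axis) for each of the 41 genes, coloured by role, with bars for the SE and a dashed line of equal change. Most points lie below the line, CDT1 and TK1 far below it at 0.26 and −2.27 and at 0.68 and −1.42, while PCNA lies on it at −0.05 in both lines.

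E1A alone was followed by few calls. In HCT116 cells 2 of the 41 genes were lower and 0 higher (background 6.59% lower and 2.91% higher in the count table, 3.47% and 1.74% in the length-scaled table), at 11 lower and 4 higher with an unadjusted p below 0.05 (12.9% and 8% of all genes), and DESeq2 called 3 lower and 1 higher (10.2% and 4.99% of all genes). The calls of edgeR were ORC6 (−0.44 ± 0.13, edgeR adjusted p = 0.0267) and GMNN (−0.44 ± 0.14, edgeR adjusted p = 0.0486). GMNN read 33.7, 28.1 and 42.4 CPM with E1A against 47.9, 49.4 and 40.3 CPM, which overlap. After removal of the GC trend GMNN (−0.30) was no longer called, ORC6 (−0.40) still was, and GINS3 (0.36) was called higher. The median log2 fold change was 0.05, against −0.02 over expressed genes, with CDT1 at 200, 204 and 177 CPM against 145, 150 and 170 CPM. Of the expressed genes in the count table, edgeR called 9.98% lower and 4.33% higher. The members with the largest change in the other roles were RFC3 (−0.49), POLE2 (−0.47), RRM1 (−0.42), CHAF1A (0.27), CDC7 (−0.27) and DTL (0.14), none called. The count was 0 without control replicate 1, without control replicate 2 or without E1A replicate 2, 12 without control replicate 3 and 16 without E1A replicate 3. Of the further replication genes 7 were lower and 1 higher (ORC3 −0.91, ASF1A −0.80) and of the mitotic genes 2 and 0 (CCNB1 −0.66, HMMR −0.63).

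In the resistant line edgeR called 0 of the 41 genes with E1A (background 0% lower and 0.0755% higher in the count table, 0% and 0.0593% in the length-scaled table), DESeq2 called 0 (0.125% of all genes lower and 0.436% higher), and 5 higher and 0 lower had an unadjusted p below 0.05 (3.54% of all genes higher). The median was 0.15, and 36 values were above 0, the largest in MCM10 (0.53 ± 0.24, edgeR adjusted p = 0.805), at 46.8, 32.4 and 41.2 CPM with E1A against 18.7, 32.2 and 32.3 CPM. CDC6 read 93.6, 86.9 and 100 CPM against 78.1, 80.4 and 104 CPM, and RRM2 460, 476 and 349 against 321, 356 and 269 CPM. For the difference of the E1A change between the lines, edgeR and DESeq2 called 0 of the 41 genes and 0 had an unadjusted p below 0.05 (background 0.011% lower and 0.00548% higher in the count table, 0% and 0.00466% in the length-scaled table). At that p 1.4% of all genes in the count table were lower and 0.947% higher, and 0.0272% and 0.0136% in DESeq2. The median difference was 0.14. The widest was MCM6 at 0.63 ± 0.45.

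Under oxaliplatin E1A went with higher levels in the resistant line. In HCT116 oxpl-R cells given both agents 18 of the 41 genes were higher than in those given oxaliplatin alone, and 0 were lower (background 0.638% higher and 0% lower in the count table, 0.598% and 0.0355% in the length-scaled table), and all 18 were higher by more than 1 on the log2 scale (0.632% of all genes in the count table). The median log2 fold change was 1.07, against −0.02 over expressed genes. All 41 values were above 0, from 0.21 for RRM1 to 1.82 for CDT1, and in 31 genes every sample with both agents lay above every sample with oxaliplatin alone, as it did in 8.17% of all genes of the count table and 10.1% of its expressed genes. By role, 7 of 11 licensing genes, 3 of 7 helicase activators, 0 of 6 polymerase genes, 3 of 8 clamp and joining genes, 2 of 3 fork genes, 2 of 3 chromatin genes and 1 of 3 nucleotide genes were called. All 6 polymerase genes had values above 0, the largest in POLE2 (1.23 ± 0.35, edgeR adjusted p = 0.152).

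CDT1 read 81, 54.8 and 86.9 CPM with both agents against 27.2, 18.2 and 17.7 CPM with oxaliplatin alone (1.82 ± 0.25, edgeR adjusted p = 0.000665). DTL, whose product removes CDT1 protein, read 32.1, 22.8 and 27.9 against 6.38, 4.79 and 12.4 CPM (1.80 ± 0.33, edgeR adjusted p = 0.0143), and MCM5 173, 136 and 164 against 57.7, 44.9 and 45.3 CPM (1.68 ± 0.21, edgeR adjusted p = 0.000388). In each the groups did not overlap. The same held for MCM2, at 224, 175 and 217 against 106, 66.5 and 67.6 CPM (1.37 ± 0.23), and RRM2, at 306, 237 and 235 against 105, 97.2 and 131 CPM (1.22 ± 0.22, edgeR adjusted p = 0.0132). DSCC1 (1.67 ± 0.28, edgeR adjusted p = 0.00616), GINS2 (1.60 ± 0.34, edgeR adjusted p = 0.0314) and CHAF1A (1.22 ± 0.24, edgeR adjusted p = 0.0218) led their roles. The calls with the smallest changes were FEN1 (1.02 ± 0.21), GINS3 (1.05 ± 0.24) and CHAF1B (1.05 ± 0.23).

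Several genes did not pass with similar fold changes. MCM10 read 19.3, 11.5 and 15.7 against 4.08, 3 and 8.38 CPM (1.56 ± 0.36), CDC6 54.8, 45.7 and 72 against 24.8, 15.2 and 34.3 CPM (1.20 ± 0.28) and GMNN 37.5, 40.3 and 44 against 12, 19.6 and 24.3 CPM (1.11 ± 0.27). Their samples did not overlap either. PCNA, at 752, 756 and 631 against 466, 635 and 597 CPM, had 0.33 ± 0.22 and overlapped. Levels with both agents stood at 45.9% to 121% of the HCT116 oxpl-R control, with a median of 76.1%, against the median of 35.3% with oxaliplatin alone. E2F1, itself a target of E2F, moved alike, from 21.9 ± 2.33 to 101 ± 17.7 CPM (SD, n = 3; log2 fold change 2.20 ± 0.22, edgeR adjusted p = 4.4e-05), as did CCNE2, a G1/S cyclin (2.45 ± 0.36, edgeR adjusted p = 0.00181). CDKN1A stood at 3070 ± 238 CPM with both agents and 4150 ± 586 CPM with oxaliplatin alone, both above the 566 ± 37.1 CPM of control cells. Of the further replication genes 3 were higher and 0 lower (median 0.50, ASF1B 1.77, TICRR 1.67), and of the mitotic genes 4 and 0 (median 0.75, MKI67 1.55, PLK1 1.33). The number of replication genes called was 34 without HCT116 oxpl-R oxaliplatin replicate 3 and 5 over the genes kept by filterByExpr, a filter on low counts.

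In HCT116 cells the same comparison gave 0 of 41 genes in edgeR, 0 in DESeq2 and 0 at an unadjusted p below 0.05 (background 0% lower and 0.0246% higher in the count table, 0% and 0.0209% in the length-scaled table). At that p 0.615% of all genes in the count table were lower and 1.26% higher, and 0.00844% and 0.152% in DESeq2. The median was 0.14, and the largest value was that of GMNN (0.83 ± 0.42, edgeR adjusted p = 1), at 11.6, 37.7 and 48.6 CPM with both agents against 15.7, 20.8 and 18.3 CPM. CDT1 read 207, 169 and 164 against 177, 184 and 166 CPM, and MCM2 389, 304 and 279 against 313, 315 and 302 CPM. The 2 lines were set against each other in a test added after the data were seen, the E1A change under oxaliplatin in HCT116 oxpl-R minus that in HCT116 cells. edgeR called 0 of the 41 genes (background 0% lower and 0.0111% higher in the count table, 0% and 0.00949% in the length-scaled table), DESeq2 called 6 higher and 0 lower (0.152% of all genes higher), and 24 higher and 0 lower had an unadjusted p below 0.05 (1.94% of all genes higher). The median was 0.88, against −0.01 over expressed genes, with 40 of 41 values above 0. CDT1 (1.79 ± 0.32, edgeR adjusted p = 0.0531) and DTL (1.83 ± 0.41, edgeR adjusted p = 0.214) had the largest values. After removal of the GC trend 4 genes were called, CDT1 (1.64), MCM5 (1.60), MCM2 (1.28) and MCM4 (1.14). E2F1 (2.10 ± 0.29, edgeR adjusted p = 0.00547) and ASF1B (1.87 ± 0.31, edgeR adjusted p = 0.0323), which are not among the 41, were called.

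**Figure D5:**
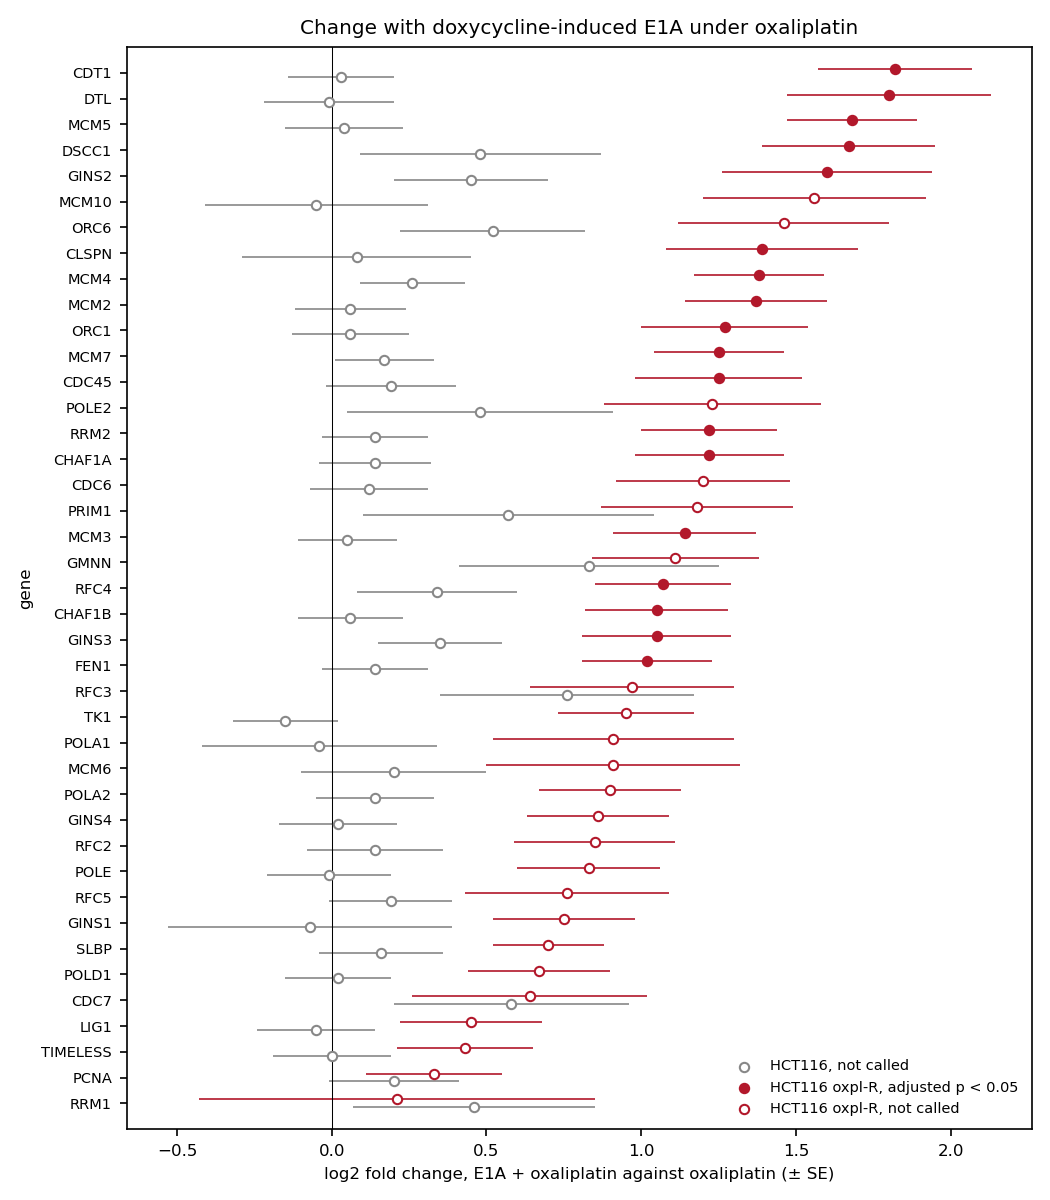
Log2 fold change of cells given E1A and oxaliplatin against cells given oxaliplatin alone, with SE, for the 41 genes in HCT116 (grey) and HCT116 oxpl-R cells (red), sorted by the value in HCT116 oxpl-R; filled points passed an adjusted p of 0.05 and open points did not. All red points lie above 0, from 0.21 to 1.82 with 18 filled, and all grey points are open.

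The same samples were also read as the change with oxaliplatin in cells that also received doxycycline. In HCT116 oxpl-R cells 10 genes were lower and 0 higher (background 0.948% lower and 1.12% higher in the count table, 0.914% and 1.04% in the length-scaled table), with 25 lower and 0 higher at an unadjusted p below 0.05 (7.11% of all genes lower) and 20 and 0 in DESeq2 (2.45% of all genes lower). The median was −0.65, against −0.03 over expressed genes. POLA1 (−1.43 ± 0.26, edgeR adjusted p = 0.00818), MCM10 (−1.41 ± 0.24, edgeR adjusted p = 0.00513) and ORC1 (−1.28 ± 0.21, edgeR adjusted p = 0.00376) were the lowest, with CLSPN (−1.03 ± 0.22), FEN1 (−0.81 ± 0.17) and CHAF1A (−0.79 ± 0.17). The first 4 of these fell by more than 1 (0.711% of all genes in the count table). Same-numbered samples deviated together here, and with the replicate number as a block 26 genes were called, MCM6 (−1.36, edgeR adjusted p = 3.02e-12) and RRM2 (−0.76, edgeR adjusted p = 6.28e-05) among those gained. The share of all genes called with the block was not computed, so the gain cannot be set against a background. Without HCT116 oxpl-R E1A + oxaliplatin replicate 2 the number was 2, without replicate 1 it was 5, and without HCT116 oxpl-R E1A replicate 3 it was 16. In HCT116 cells 7 genes were lower and 0 higher (background 4.81% lower and 5.2% higher in the count table, 4.68% and 2.96% in the length-scaled table; median −0.26 against 0.01 over expressed genes), of which POLA1 fell by more than 1 (−1.14 ± 0.26, edgeR adjusted p = 0.0141; 1.71% of all genes in the count table), followed by MCM6 (−0.99 ± 0.16, edgeR adjusted p = 0.00203), ORC1 (−0.82 ± 0.19, edgeR adjusted p = 0.0131) and CHAF1A (−0.80 ± 0.18). At an unadjusted p below 0.05 there were 14 lower and 2 higher (11.7% and 12.6% of all genes), and in DESeq2 12 and 1 (10% and 9.52% of all genes). After removal of the GC trend 9 were lower and 1 higher, the latter PCNA (0.59, edgeR adjusted p = 0.0291). The number of 7 became 2 without HCT116 E1A replicate 1 or 2, 11 without HCT116 E1A replicate 3 and 24 without HCT116 E1A + oxaliplatin replicate 1. POLA1, ORC1, CHAF1A, MCM4 and DTL were called lower in both lines.

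The interaction of E1A with oxaliplatin, the change with both agents beyond the sum of their single changes, was called in 0 genes by edgeR in either line (background 0% in both directions, but 0.00464% higher in the length-scaled table for HCT116 oxpl-R cells). In HCT116 cells the median was 0.01, DESeq2 called 0 (0.0688% of all genes lower and 0.0275% higher), and 5 higher and 0 lower had an unadjusted p below 0.05 (2.76% of all genes higher). The number was 6 without HCT116 E1A + oxaliplatin replicate 1. In HCT116 oxpl-R cells all 41 values were above 0, with a median of 0.84. There, 31 higher and 0 lower had an unadjusted p below 0.05 (1.69% of all genes higher) and DESeq2 called 4 higher and 0 lower (0.129% of all genes higher) and gave POLE2 no adjusted p. CDT1 had the largest value at 1.66 ± 0.31 (edgeR adjusted p = 0.148) and MCM5 the lowest edgeR adjusted p, 0.131. With the GC trend removed 3 genes were called, CDT1 among them at 1.57 (edgeR adjusted p = 0.00594).

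Genes with and without a match to the 4 E2F forms searched in the promoter window had similar medians. Other forms of the motif were not searched, so a window without a match may still hold an E2F site. In HCT116 oxpl-R cells the median change with oxaliplatin was −1.40 for the 28 genes with an E2F match and −1.49 for the 9 without, and the median change with E1A under oxaliplatin was 1.05 and 1.11. CDT1 and PCNA, whose windows are printed above, hold 2 matches and 1 match and had changes with oxaliplatin of −2.27 and −0.05. Transcript GC content went with the scatter between replicates: the median coefficient of variation within a group was 21.9% over the 14 genes of lowest GC content, 13.1% over the middle 13 and 10.8% over the 14 of highest. RRM1 and MCM6 belong to the lowest group. In RRM1 replicate 3 was high in all 4 HCT116 oxpl-R groups, at 178, 190, 107 and 138 CPM in control, E1A, oxaliplatin and combined samples, against 10.2 to 47.4 CPM in the other 8 samples. PRIM1, RFC4 (18 bases of overlap with EIF4A2) and GINS2 (7 bases with GSE1) overlap genes with more counts than their own. MCM7 (392 bases with AP4M1), GINS1 (259 bases with NINL), GINS4, DTL and RRM1 overlap genes with fewer counts. So do CHAF1B (89 bases with MORC3) and FEN1 (49 bases with FADS2), on the same strand. The strand setting of the counts is not given in the sources used here.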

How the data were processed

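RNA of 24 samples (8 groups of 3) was sequenced as paired reads from mRNA libraries. Per the study's methods and the submitters' processing notes, reads were trimmed with Trimmomatic, quantified with Salmon 1.6.0 (selective alignment, corrections for sequence and GC bias) on GENCODE transcripts of GRCh38, and brought to gene level with tximport. Estimated counts, not normalized, are what the authors deposited in the first table. Between 15.9% and 30.4% of a sample's values were not whole and were rounded. This table holds 33113 genes and ends at SETP6. The authors deposited a further table named as TPM, whose columns sum to 28004261 to 42613322 and follow the estimated counts (correlation at least 0.995 within a sample), and it was therefore treated, against the plan, as estimated counts scaled for transcript length. It holds 37967 genes to TSC22D3 and was used for SLBP, TIMELESS and TK1. The last row of each table was incomplete and dropped.

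Groups were compared by the quasi-likelihood test of edgeR 4.0.16 (R 4.3.3) after TMM scaling. A fit held only the groups compared, and p-values were adjusted by Benjamini-Hochberg across every gene counted in it. SE is the log2 fold change divided by the root of F. A gene was called at an adjusted p below 0.05, and a stricter rule added a log2 fold change above 1. Expressed genes had a mean count of at least 10. Background shares are over every gene tested unless expressed genes are named, and shares of edgeR calls over expressed genes were larger or equal. Shares of all genes for DESeq2 are over genes it gave an adjusted p. The replicate number was used as a block in an alternative: it pairs the samples where all correlations of same-numbered samples' deviations exceed 0.1, which held for the lines under oxaliplatin (0.141, 0.188 and 0.253) and for oxaliplatin under E1A in HCT116 oxpl-R cells (0.419, 0.480 and 0.529). For the lines under oxaliplatin, not every sample correlated best with its own number. Oxaliplatin in HCT116 oxpl-R cells missed the rule (0.084, 0.465 and 0.547), though each sample there correlated best with its own number. With the block 40 of the 41 genes were called in it. Alternatives were RLE scaling, DESeq2 1.42.0, filterByExpr, all 24 samples in one fit, the length-scaled table for all members, each sample left out, and, added after the data were seen, removal of a lowess trend with transcript GC content. Shares of all genes were not computed for RLE, filterByExpr, the block, the fit of all 24 samples, samples left out or the GC trend removed. Counts of genes called in those settings thus have no background. The edgeR test was tried on simulated data for oxaliplatin in HCT116 oxpl-R cells and for its difference between the lines. Removal of the GC trend was tried on simulated data for the former only. The other comparisons and alternatives were not tried on simulated data. Values are named for the 3 largest and 3 smallest changes called and the largest change of each role in a comparison, for PCNA, CDC6, CDT1, MCM2, MCM10, RRM2 and GMNN, and, outside the 41 genes, for CDKN1A, MDM2, CCNE2 and E2F1 as checks and the 2 largest called changes of the further replication (44 in the tables) and mitotic (24) lists. RFC5, POLD1, LIG1, RFC3, MCM6, CDC7 and RRM1 in HCT116 oxpl-R cells, and MCM4 and GINS3 with the GC trend removed, were named after their values were seen. The members and lists were chosen with earlier results of these data known. Plots were drawn with Python 3.11.15 and matplotlib 3.10.9.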

Additional observations from a re-analysis of the deposited data

Results flagged for a closer look

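The change with oxaliplatin differed between the lines in 15 of the 41 genes by edgeR's interaction test. For the 9 genes whose difference is given above, it is stated as the log2 fold change in HCT116 oxpl-R minus that in HCT116 cells. It was −2.51 for CDT1, −2.05 for TK1, −1.78 for MCM5, −1.76 for MCM2, −1.67 for DTL, −1.34 for POLD1, −1.19 for CHAF1B, −1.10 for FEN1 and −1.05 for RRM2. In CDT1, TK1 and POLD1 the parental change was above 0 and the change in the resistant line below 0 (0.26 and −2.27, 0.68 and −1.42, 0.72 and −0.64). Only TK1 was called in both lines. The parental change of CDT1 was not called, and neither was the change of POLD1 in the resistant line. In the other 6 both changes were below 0, but MCM2 and CHAF1B (−0.07) were among those not called in the parental line. With the GC trend removed, a setting added after the data were seen, the differences of CDT1 (−2.07), TK1 (−1.61) and POLD1 (−0.91) were called, but the parental changes of TK1 (0.12) and POLD1 (0.11) were not.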

How the results depend on the processing

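Of 1868 recomputed values of named genes, over 118 pairs of a gene and a comparison, 1660 kept their direction and side of the threshold, 117 lost a call, 82 gained a call and 9 changed sign. The cause of these changes was not tested. The sign changes were those of uncalled values: CDC7 with E1A in HCT116 (0.03 with the GC trend removed, with or without the replicate block), MCM6 with E1A in HCT116 oxpl-R (−0.08 to 1.08 with a sample left out, the sign changing without E1A replicate 3), the line difference of the E1A change for CHAF1A (−0.04 in the length-scaled table, −0.01 to 0.17 with a sample left out, below 0 without HCT116 control replicate 3) and RRM1 (−0.58 to 1.88, below 0 without HCT116 oxpl-R E1A replicate 3), and CLSPN with E1A under oxaliplatin in HCT116 (−0.16 to 0.67, below 0 without oxaliplatin replicate 1 or 2 or combined replicate 1).

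Numbers of the 41 genes called moved as follows. Between the untreated lines (20), 1 passed with a fold change above 1 added and 13 with all 24 samples in one fit. For oxaliplatin in HCT116 (24) the numbers were 5 with the fold change added, 14 with the replicate block, 15 with the GC trend removed, 7 with both, and 13 to 33 with a sample left out. For its difference between the lines (15) they were 6 to 21 with a sample left out. For E1A in HCT116 (2) they were 0 with the fold change, filterByExpr, the replicate block, the block and GC trend removed, all 24 samples or the length-scaled table, 5 with RLE, 4 with DESeq2 and 0 to 16 with a sample left out. For E1A under oxaliplatin in HCT116 oxpl-R (18) they were 5 with filterByExpr, 35 with the block and GC trend removed and 16 to 34 with a sample left out. For oxaliplatin under E1A in HCT116 (7) they were 1 with the fold change, 13 with DESeq2, 11 with the block and GC trend removed and 2 to 24 with a sample left out; in HCT116 oxpl-R (10) they were 4, 20, 25 and 2 to 16, with 26 under the block and 16 with the GC trend removed. For E1A by oxaliplatin (0) they were 0 to 6 in HCT116 with a sample left out, and in HCT116 oxpl-R 4 with DESeq2, 4 with the block, 3 with the GC trend removed, 15 with both, 3 with all 24 samples and 0 to 1 with a sample left out. For the difference of the lines in E1A under oxaliplatin (0) they were 1 with RLE, 6 with DESeq2, 2 with the block, 4 with the GC trend removed, 2 with both, 6 with all 24 samples, 1 in the length-scaled table and 0 to 2 with a sample left out. The other comparisons stayed within 1.5 times under every alternative run. Where the numbers do not pair the samples, the block is given only as a value. Counting error is larger relative to the level where levels are low, as for POLA1, POLE2 and MCM10 in HCT116 oxpl-R cells with oxaliplatin.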
